A study of Arabidopsis thaliana with 12 samples.

Results

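Polycomb group (PcG) proteins keep developmental genes silent in tissues where they are not used. Polycomb repressive complex 2 (PRC2) places H3K27me3, and in Arabidopsis its catalytic subunits CLF and SWN do so after germination. Polycomb repressive complex 1 (PRC1) places H2AK121ub through the RING1 and BMI1 proteins, and EMF1 is a plant-specific protein that works with the PcG complexes. Seedlings that lose this repression switch on flower and seed genes out of place.

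The 200 genes described here had higher RNA levels in emf1-2 and in clf28swn7 than in WT, but a level close to WT in ring1ab. They were taken from 21227 genes with at least 1 FPKM (fragments of a gene's exons, divided by their length and by the depth of the library) in 3 or more of 12 libraries, out of 33602 genes in the table. For each mutant, the mean of log2(FPKM + 1) over its 3 libraries minus that of the WT libraries was computed. Genes within 0.5 of WT in ring1ab were ranked by the smaller of the emf1-2 and clf28swn7 differences, and the first 200 were kept. The members were thus selected on those 3 differences from WT, which are given as a description, without a test. The contrast between emf1-2 and clf28swn7 was not ranked on, and it was tested. It is not independent of the choice, because the rule bounds the smaller of the differences from WT and leaves the larger free.

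The libraries came from whole Arabidopsis thaliana seedlings in the Col-0 background, 10 days after germination, with 3 replicates each. The emf1-2 seedlings carry a mutation in EMF1, the clf28swn7 seedlings are mutated in both CLF and SWN, the ring1ab seedlings are mutated in RING1A and RING1B, and WT is unmutated Col-0. All were grown on agar plates in long days. The study describes emf1-2 and clf28swn7 as severe mutants arrested before vegetative development of the shoot, emf1-2 with a root like that of WT and clf28swn7 with a stunted root, and ring1ab as a weak mutant that forms leaves and flowers. In bulk seedlings, a gene active in fewer cells and one with less RNA per cell cannot be told apart.

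By the spacing of low FPKM values, depth was estimated at 19000000 to 20300000 fragments in emf1-2, 14200000 to 15000000 in clf28swn7, 18900000 to 21700000 in ring1ab and 18500000 to 20300000 in WT. Replicates of a genotype correlated at 0.976 to 0.992 over tested genes, and libraries of different genotypes at no more than 0.927. As a check of the labels, CLF averaged 0.301 FPKM in clf28swn7 and 8.90 FPKM in WT, SWN 3.59 and 16.4 FPKM, and RING1B averaged 0.554 FPKM in ring1ab and 7.07 FPKM in WT. RING1A averaged 188 FPKM in ring1ab against 4.75 FPKM in WT, and EMF1 was higher in the libraries labelled emf1-2 than in WT, so neither transcript level checks its mutation.

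Marker genes of other tissues moved with genotype. The 15 root cell markers summed to 35.5 to 59.7 FPKM in the libraries labelled emf1-2, 73.0 to 91.6 in clf28swn7 and 222 to 265 in ring1ab, against 198 to 260 in WT. Abundant genes such as CASP1 and PHO1 weigh most in this sum. Against WT, 12 of the 15 were called lower in emf1-2 and 11 in clf28swn7, where 12.4% and 12.3% of tested genes were. NRT2.1 was called higher in both. The study describes the emf1-2 root as like that of WT, and the reason for the low sum was not tested. The 13 green shoot markers summed to 3849 to 4930 FPKM in emf1-2, 3328 to 4113 in clf28swn7 and 13199 to 17423 in ring1ab, against 20999 to 22140 in WT. The 11 seed storage markers summed to 410 to 1017 FPKM in emf1-2, 37873 to 42691 in clf28swn7 and 14785 to 25118 in ring1ab, against 2.33 to 13.1 in WT. No marker of the 3 lists was a member, and their part in the members' levels was not tested.

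**Figure D1:**
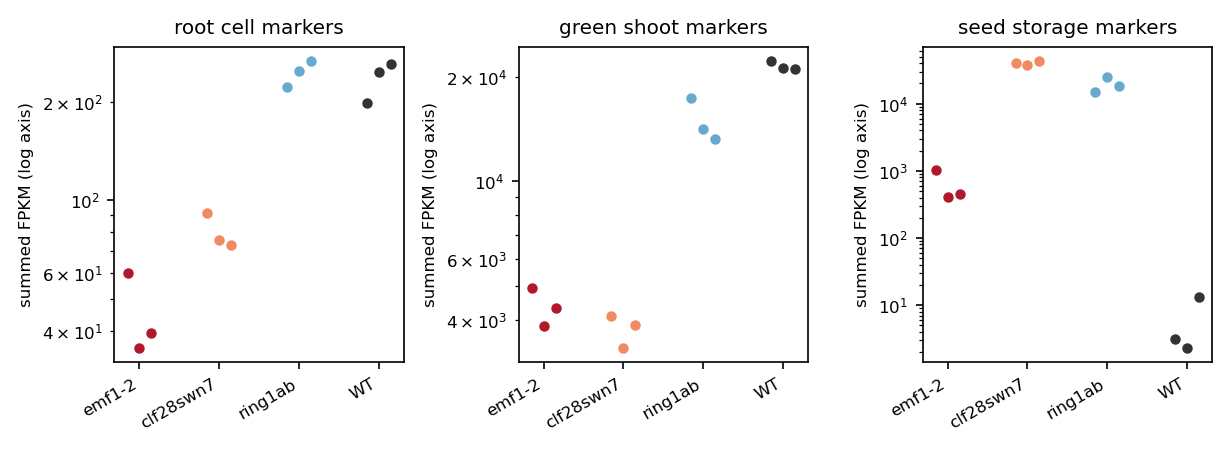
Summed FPKM of root cell, green shoot and seed storage markers in each library (points) on log axes, by genotype. Seed storage sums lie at 14785 FPKM or more in every clf28swn7 and ring1ab library and at or under 1017 FPKM in every emf1-2 library, whereas the root and green sums are lowest in emf1-2 and clf28swn7.

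The median difference from WT over the 200 members was 2.51 ± 0.07 in emf1-2, 2.42 ± 0.02 in clf28swn7 and 0.19 ± 0.06 in ring1ab on the log2(FPKM + 1) scale (SD over 3 replicates). Each SD covers the libraries of the mutant against the mean of the WT libraries, so it leaves out the spread of WT. Over all tested genes the medians were 0.19, 0.07 and 0.04 in the same order. All 200 members passed a log2 fold change of 1 with an unadjusted p under 0.05 in limma against WT in both severe mutants, which follows largely from the choice of members. Of all tested genes 13.7% did so in emf1-2 and 15.1% in clf28swn7. Differences of single members ranged between 1.68 and 6.32 in emf1-2 and between 1.67 and 8.73 in clf28swn7.

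Genes raised this far in both severe mutants and little in ring1ab were the smaller share of those raised this far. Differences as large as those of the last member in both severe mutants were seen in 728 genes. Of these, 523 lay above the ring1ab limit and 5 below it, 72.5% together, and 200 lay within it. Of all 21227 tested genes, 16127 lay within it. The same WT libraries were subtracted from every mutant, so low WT values in them raise the ring1ab difference along with the others. The split of 523 against 5 is thus a description only. The 5 genes with the largest smaller difference that failed the ring1ab condition were LTP4, LEA18, AT3G02480, AT1G68250 and AT4G12870. LTP4, a lipid transfer protein, averaged 2285 FPKM in emf1-2, 573 in clf28swn7 and 9.13 in ring1ab, against 0.849 in WT. LEA18, a late embryogenesis abundant protein, averaged 294 FPKM in emf1-2, 930.05 in clf28swn7 and 13.5 in ring1ab, against 0.143 in WT. Their ring1ab levels were thus a small fraction of those in the severe mutants while lying outside the limit.

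**Figure D2:**
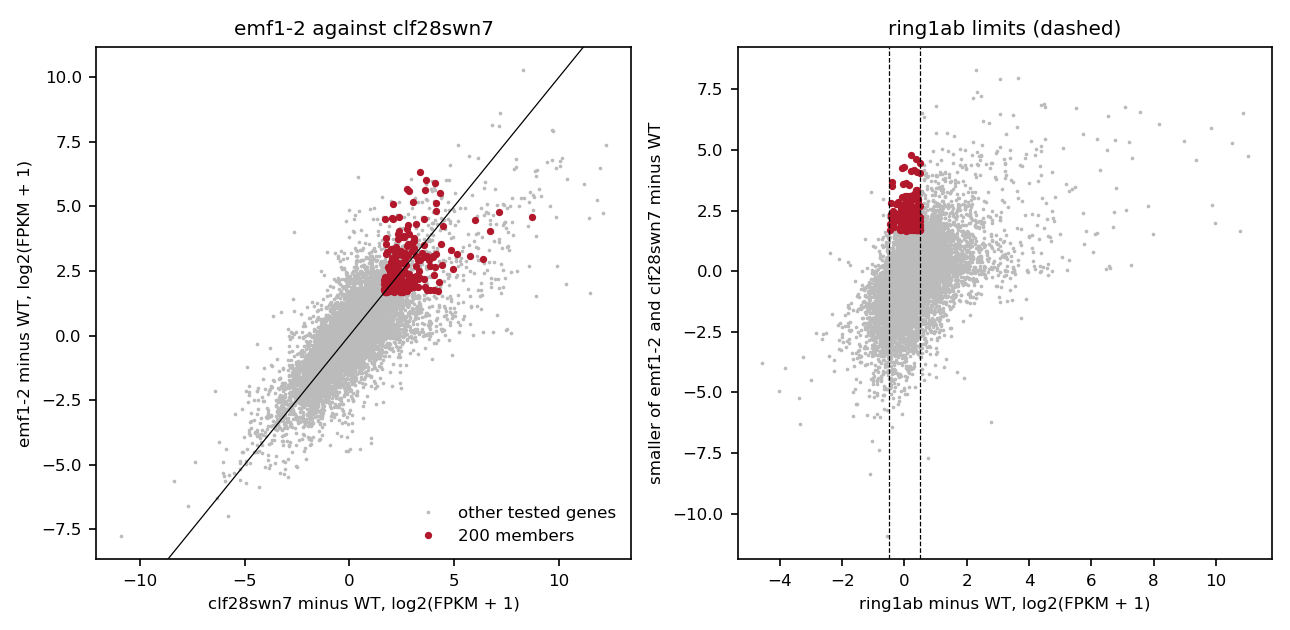
Differences from WT in mean log2(FPKM + 1). Left, emf1-2 (vertical) against clf28swn7 (horizontal) for the 200 members (red) and the other tested genes (grey), with the line of equality; right, the smaller of these differences against that of ring1ab, with dashed limits at -0.5 and 0.5. Members fill the upper part of the strip between the limits, and higher genes lie mostly to its right.

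Members were low in WT. Their median WT level was 1.94 FPKM (quartiles 0.244 and 8.87), against 10.01 FPKM over all tested genes (quartiles 3.32 and 24.2). In WT, 85 members (42.5%) averaged under 1 FPKM, as did 9.44% of tested genes, 66 averaged 1 to 10 FPKM and 49 averaged 10 FPKM or more. In all 3 WT libraries 18 members were listed at 0. The FPKM minimum was met by the WT libraries themselves for 108 of the 200 members, and the others needed mutant libraries to meet it. The rule subtracts the WT level, so low WT levels are favoured by the choice of members. These values are a description only.

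In ring1ab, 99 members lay within 0.25 of WT, 41 lay at 0.4 or more and 5 at -0.4 or less. The difference was positive for 153 members (76.5%), against 54.8% of tested genes. The WT libraries that were low in the choice of members are the same ones subtracted here, so this share is a description only. Because 1 was added before the log, a low gene could multiply in ring1ab and stay within the limit. Of the 67 members under 1 FPKM but above 0 in WT, 26 averaged at least 2 times the WT level in ring1ab. Of the members at 1 FPKM or more in WT, 0 did, and their ratios of ring1ab to WT ran between 0.511 and 1.67.

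**Figure D3:**
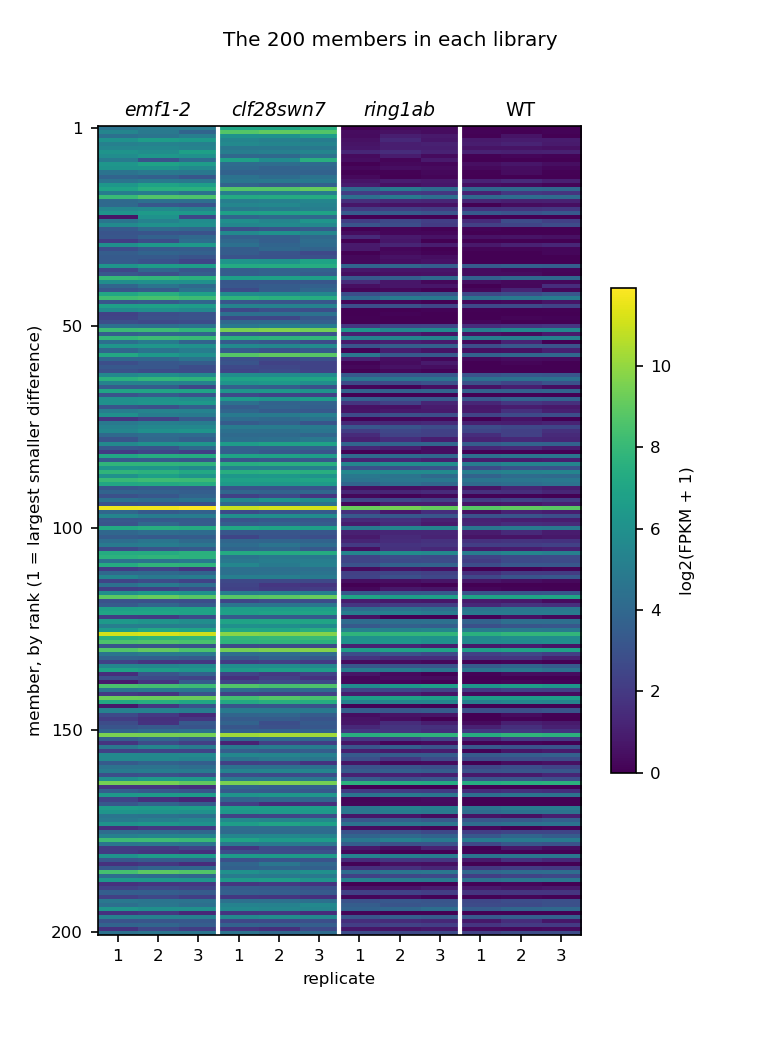
log2(FPKM + 1) of the 200 members (rows, by rank) in the 12 libraries (columns, 3 replicates of each genotype). The emf1-2 and clf28swn7 columns are bright throughout, the ring1ab columns resemble the WT columns, and the upper rows, where the smaller difference is largest, are nearly dark in WT.

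The 10 members with the largest smaller difference were AT1G47980, GEA6, PRX52, SQP1, FLS2, AT5G47330, CYP71A12, DELTA-VPE, AT1G14950 and AMY1. Their smaller differences ran between 3.66 and 4.78. PRX52, a peroxidase, had 20.2, 23.2 and 33.4 FPKM in emf1-2, 65.5, 66.5 and 93.8 in clf28swn7 and 0.282, 0.988 and 0.749 in ring1ab, against 0.0433, 0.526 and 0 in WT. FLS2 is here flavonol synthase 2, not the flagellin receptor, and had 35.8, 37.9 and 35.5 FPKM in emf1-2, 47.4, 41.7 and 39.3 in clf28swn7 and 0.556, 0.994 and 1.1 in ring1ab, against 0.907, 1.25 and 0.79 in WT. AMY1, an alpha-amylase that cleaves starch, had 75.4, 117 and 95.4 FPKM in emf1-2, 17.3, 18.3 and 17.2 in clf28swn7 and 0, 0.211 and 0.144 in ring1ab, against 0.387, 0.656 and 0.377 in WT. In all 3 genes every emf1-2 and clf28swn7 library lay above every ring1ab and WT library. DELTA-VPE, a vacuolar processing enzyme, averaged 65.3 FPKM in emf1-2, 17.7 in clf28swn7, 0.462 in ring1ab and 0.0904 in WT. AT5G47330, an alpha/beta hydrolase, averaged 42.6 FPKM in emf1-2, 26.1 in clf28swn7, 0.869 in ring1ab and 0.522 in WT.

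The last 3 members were AT1G29630, AT1G14455 and CCR2, with smaller differences of 1.68, 1.68 and 1.67. The 3 genes just outside were CYP71B10, AT3G57380 and AT5G10080, each at 1.67. CYP71B10, a cytochrome P450, averaged 2.42 FPKM in emf1-2, 3.01 in clf28swn7 and 0.0849 in ring1ab, against 0.0147 in WT. The limit of 200 members thus falls in a continuous range of values.

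The emf1-2 libraries differed from the clf28swn7 libraries in 60 members. Differences between them are given as emf1-2 minus clf28swn7 on the log2(FPKM + 1) scale. In limma, 32 members were higher in emf1-2 than in clf28swn7 by a log2 fold change of at least 1 at an unadjusted p under 0.05, and 28 were lower. The corresponding shares of all tested genes were 5.54% higher and 8.35% lower, and members made up 0.942% of tested genes. Members were chosen for large differences from WT in both mutants, so these shares are not matched to them in size of change. With Benjamini-Hochberg adjusted p-values under 0.05 the counts were also 32 and 28. In neither direction were 140 members called, of which 87 lay within 0.5 of each other. The median of emf1-2 minus clf28swn7 was 0.06 over the members and 0.12 over all tested genes.

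The 5 largest positive differences were in LUP2, AT3G27025, TT16, SQE6 and NAC019. The 5 largest negative differences were in GEA6, AT3G21380, AT5G05220, AT1G14950 and PYL11. AT3G27025, an uncharacterized protein, had 77.6, 119 and 102 FPKM in emf1-2, 12.8, 10.6 and 11.9 in clf28swn7 and 0.875, 0.455 and 0.655 in ring1ab, against 0.355, 0.257 and 0.117 in WT, a difference between emf1-2 and clf28swn7 of 2.96 ± 0.15 (SE, adjusted p = 8.2e-08). AT3G21380, a lectin of the mannose-binding type, had 9.44, 7.05 and 4.71 FPKM in emf1-2, 70.1, 65.7 and 117 in clf28swn7 and 0.191, 0.349 and 0.52 in ring1ab, against 0 in all 3 WT libraries, a difference of -3.40 ± 0.23 (SE, adjusted p = 6.6e-07). In each gene the libraries of the severe mutants did not overlap, in opposite directions. Of all tested genes, 40.3% had every emf1-2 library above every clf28swn7 library and 24.8% had every one below. AT5G05220, uncharacterized, was lower in emf1-2 than in clf28swn7 at a log2 difference of -2.70 ± 0.13 (SE, adjusted p = 3.8e-08). AT1G14950, annotated as a polyketide cyclase and lipid transport protein, had 28.5, 7.09 and 17.2 FPKM in emf1-2, 114, 54.3 and 182 in clf28swn7 and 0.376, 0.11 and 0.805 in ring1ab, against 0 in all 3 WT libraries. Its difference of -2.69 ± 0.47 (SE, adjusted p = 5.7e-04) carries the largest standard error of the 10, and its replicates spread widely within both severe mutants.

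**Figure D4:**
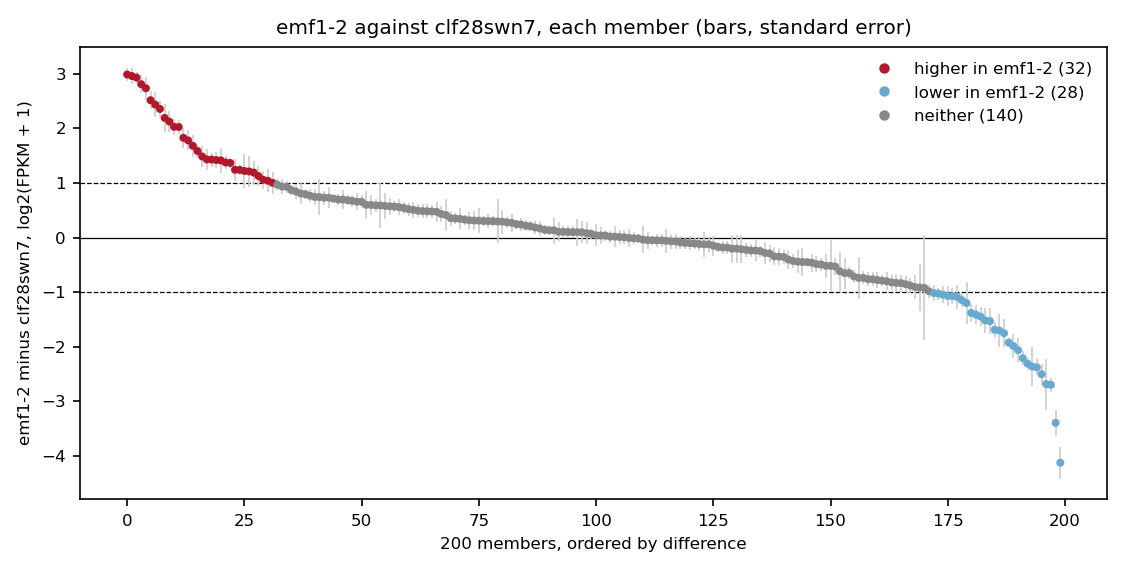
emf1-2 minus clf28swn7 in log2(FPKM + 1) for each of the 200 members, ordered by value, with standard errors from limma. Red points are the 32 members higher in emf1-2, blue points the 28 lower, grey points the other 140, and dashed lines mark -1 and 1.

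To describe the members by role, 73 of them were put into 7 groups by annotation after their values had been seen, and 127 were left out. The groups support no test. Lists of developmental genes are given beside them.

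MADS-box genes encode transcription factors that specify flower organs and set flowering time. Of the 14 tested genes on the floral organ list, 12 were called higher in emf1-2, 12 in clf28swn7 and 8 in ring1ab against WT. Of all tested genes, 13.7%, 15.1% and 7.16% were called higher in the same order, and 12.4%, 12.3% and 1.03% lower. SEP4 was called lower in emf1-2 and in ring1ab. Only AG and AGL6 of that list were members, and AP1 fell outside at rank 229. Of 22 other tested type II MADS-box genes, 11 were called higher in emf1-2, 10 in clf28swn7 and 4 in ring1ab, 3, 3 and 1 were called lower in the same order, and AGL71, AGL72, AGL17 and TT16 were members. All 6 averaged under 1 FPKM in WT.

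AG, the C-function gene that specifies stamens and carpels (AT4G18960, chr4:10382856-10388539, plus strand, TAIR10.1), had 69.5, 68.8 and 48.8 FPKM in emf1-2, 15.9, 13 and 14.3 in clf28swn7 and 0.194, 0.343 and 0.29 in ring1ab, against 0.228, 0.337 and 0.167 in WT. Its levels in ring1ab and WT overlapped, while all 6 libraries of the severe mutants lay above 12 FPKM. It was higher in emf1-2 than in clf28swn7 at a log2 difference of 2.03 ± 0.13 (SE, adjusted p = 4.3e-07). Other genes of the list reached higher levels in ring1ab. STK, which acts with AG in ovules, averaged 64.1 FPKM in emf1-2, 14.8 in clf28swn7 and 1.12 in ring1ab, against 0.012 in WT. SEP1, a cofactor of the organ identity proteins, averaged 68.3 FPKM in emf1-2, 28.2 in clf28swn7 and 4.84 in ring1ab, against 0.0707 in WT.

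TT16, a B-sister gene of the seed coat (AT5G23260, chr5:7835965-7838555, plus strand), had 51, 58.4 and 46.8 FPKM in emf1-2, 5.01, 6.64 and 6.27 in clf28swn7 and 0, 0 and 0.0769 in ring1ab, against 0.052, 0 and 0.053 in WT. It was higher in emf1-2 than in clf28swn7 at a log2 difference of 2.93 ± 0.10 (SE, adjusted p = 5.8e-09), and its ring1ab and WT libraries overlapped near 0. AGL6, expressed in flowers (AT2G45650, chr2:18804190-18806586, plus strand), had 3.09, 2.47 and 2.03 FPKM in emf1-2, 6.16, 5.79 and 6.45 in clf28swn7 and 0.194, 0 and 0 in ring1ab, against 0.0967, 0.0445 and 0.0494 in WT. It was lower in emf1-2 than in clf28swn7 at a log2 difference of -1.03 ± 0.11 (SE, adjusted p = 1.8e-05), the opposite direction to AG and TT16. Without emf1-2 replicate 3 this difference was -0.92 and without clf28swn7 replicate 3 it was -0.99, short of the fold change threshold.

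AGL71 and AGL72, relatives of the flowering gene SOC1, are neighbours on chromosome 5 (AT5G51870, chr5:21085462-21088414, minus strand and AT5G51860, chr5:21081844-21084427, minus strand). AGL71 had 7.52, 10.2 and 7.14 FPKM in emf1-2, 5.25, 4.22 and 3.81 in clf28swn7 and 0 in all 3 ring1ab libraries, against 0, 0.047 and 0 in WT. AGL72 had 6.67, 5.84 and 5.53 FPKM in emf1-2, 4.5, 5.32 and 4.28 in clf28swn7 and 0, 0.178 and 0.0669 in ring1ab, against 0 in all 3 WT libraries. Both were near 0 outside the severe mutants, and their differences of emf1-2 minus clf28swn7 stayed under the threshold, at 0.77 ± 0.12 (SE, adjusted p = 3.2e-04) for AGL71 and 0.30 ± 0.09 (SE, adjusted p = 0.017) for AGL72. Reads of such close relatives may be shared between them. AGL17 averaged 4.61 FPKM in emf1-2, 8.56 in clf28swn7, 0.739 in ring1ab and 0.73 in WT, with a difference between emf1-2 and clf28swn7 of -0.76 ± 0.13 (SE, adjusted p = 4.0e-04).

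The bases before the start of 4 of these MADS-box genes are shown because GAGA motifs (GAGAGAG) and teloboxes (AAACCCTA) are known in Arabidopsis as sequences through which PRC2 is recruited. The windows are the 250 bases before the annotated gene start, from the RefSeq TAIR10.1 genome, with either motif on either strand in capitals. They lie at chr4:10382606-10382855 for AG (plus strand), chr5:7835715-7835964 for TT16 (plus strand), chr5:21084428-21084677 for AGL72 (minus strand) and chr5:21088415-21088664 for AGL71 (minus strand).
AG: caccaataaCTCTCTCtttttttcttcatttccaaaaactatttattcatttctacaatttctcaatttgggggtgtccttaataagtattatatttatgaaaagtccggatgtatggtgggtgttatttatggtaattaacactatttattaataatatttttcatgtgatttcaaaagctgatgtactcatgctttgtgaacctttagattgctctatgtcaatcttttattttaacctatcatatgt
TT16: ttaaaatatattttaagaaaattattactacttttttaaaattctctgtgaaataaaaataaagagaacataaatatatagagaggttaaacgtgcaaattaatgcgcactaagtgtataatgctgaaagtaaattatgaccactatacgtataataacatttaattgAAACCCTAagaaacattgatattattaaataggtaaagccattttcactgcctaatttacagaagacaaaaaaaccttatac
AGL72: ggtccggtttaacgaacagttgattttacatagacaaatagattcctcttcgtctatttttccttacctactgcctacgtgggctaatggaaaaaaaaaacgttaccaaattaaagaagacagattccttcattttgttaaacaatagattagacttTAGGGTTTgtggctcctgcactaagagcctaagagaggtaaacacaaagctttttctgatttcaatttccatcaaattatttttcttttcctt
AGL71: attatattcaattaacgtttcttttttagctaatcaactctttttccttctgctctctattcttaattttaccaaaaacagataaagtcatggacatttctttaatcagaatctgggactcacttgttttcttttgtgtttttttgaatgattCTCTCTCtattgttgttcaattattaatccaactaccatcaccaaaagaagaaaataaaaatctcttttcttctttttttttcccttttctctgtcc
AG and AGL71 hold the GAGA motif and TT16 and AGL72 the telobox, while AGL6 and AGL17 have neither in this window. Over all members 6% of windows held the GAGA motif, against 7.24% of 21028 tested genes with a window. The telobox was in 4% of members and in 3.70% of tested genes. A CArG box, the sequence bound by MADS-domain proteins, was found in 1% of members and 2.65% of tested genes, and in none of these 6 windows. These shares are descriptions of short windows.

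**Figure D5:**
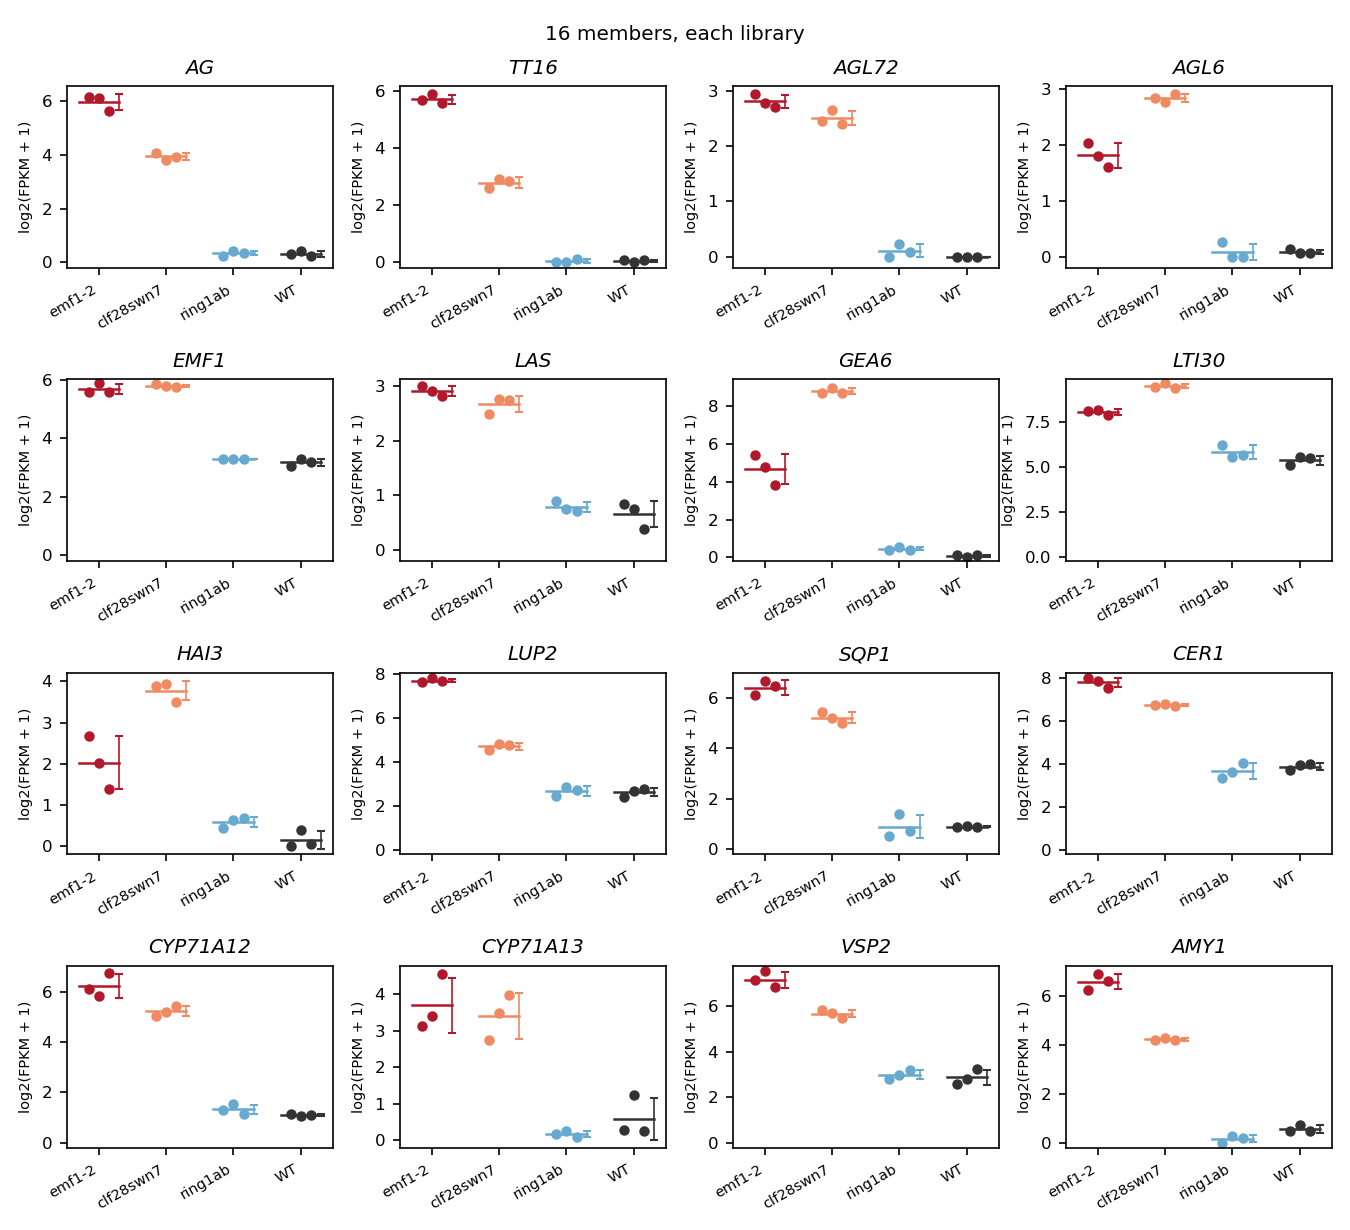
log2(FPKM + 1) of 16 members in each library (points), by genotype, with the mean (line) and SD (bar, n = 3). AG, TT16, LUP2 and AMY1 are highest in emf1-2, AGL6, GEA6, LTI30 and HAI3 are highest in clf28swn7, and ring1ab lies near WT in all 16.

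Among PcG components, EMF1 was the only member of 13 tested genes. EMF1 (AT5G11530, chr5:3695792-3701549, plus strand) had 47, 57.4 and 46.2 FPKM in emf1-2, 56, 53.4 and 52.6 in clf28swn7 and 8.68, 8.77 and 8.66 in ring1ab, against 7.31, 8.79 and 8.05 in WT. The 6 libraries of the severe mutants lay between 46.2 and 57.4 FPKM, the 6 others between 7.31 and 8.79 FPKM, and emf1-2 and clf28swn7 differed by -0.11 ± 0.09 (SE, adjusted p = 0.33). The EMF1 transcript was thus high in the mutant of EMF1 itself, and an FPKM value cannot separate mutated from intact transcripts. Of the 13 genes, 2 were called higher than WT in emf1-2, EMF1 and VIN3, and 4 in clf28swn7, those and RING1A and RING1B. The mutated CLF and SWN were called lower in clf28swn7. In ring1ab 3 were called higher and 1 lower. Of all tested genes, 13.7% were called higher in emf1-2, 15.1% in clf28swn7 and 7.16% in ring1ab. The shares called lower were 12.3% in clf28swn7 and 1.03% in ring1ab. VIN3, which acts with PRC2 in vernalization, had log2 differences from WT of 1.65 in emf1-2, 1.56 in clf28swn7 and 1.69 in ring1ab, the last of which put it outside the ring1ab limit. EMF2, FIE, MSI1, VRN2 and LHP1 were called in neither severe mutant, with differences between 0.30 and 0.91 in emf1-2 and between 0.03 and 0.54 in clf28swn7.

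Among 11 tested organ boundary genes, 9 were called higher in emf1-2, 9 in clf28swn7 and 5 in ring1ab, and LAS was the only member. Of all tested genes, 13.7%, 15.1% and 7.16% were called higher in the same order, and 12.4% lower in emf1-2. These shares also stand beside the lists below. LAS, a GRAS regulator required for axillary meristems (AT1G55580, chr1:20763844-20765823, plus strand), had 6.96, 6.52 and 6.06 FPKM in emf1-2, 4.65, 5.77 and 5.72 in clf28swn7 and 0.863, 0.679 and 0.653 in ring1ab, against 0.806, 0.681 and 0.309 in WT. Its ring1ab and WT libraries overlapped, and emf1-2 and clf28swn7 differed by 0.24 ± 0.12 (SE, adjusted p = 0.11). The flower meristem, carpel and ovule, stamen, KNOX, WOX and embryo maturation lists held 6, 19, 4, 9, 11 and 8 tested genes and no member. Of the 9 KNOX genes, 7 were called higher in emf1-2, 5 in clf28swn7 and 5 in ring1ab. Of the 8 embryo maturation regulators, 4 were called higher in emf1-2, 8 in clf28swn7 and 6 in ring1ab. Of the 11 WOX genes, 3, 6 and 4 were called higher in the same order of mutants, and 1 was called lower in emf1-2. Of the 19 carpel and ovule genes, 13, 15 and 7 were, of the 6 flower meristem genes 4, 5 and 3, and of the 4 stamen genes 2, 1 and 0. SUP, which bounds stamens and carpels in the flower, was close to the members in its pattern, with log2 differences from WT of 2.80 in emf1-2, 1.49 in clf28swn7 and 0.08 in ring1ab. It missed membership through its clf28swn7 level of 1.82 FPKM.

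Other transcription factors among the members numbered 14 in the role group with LAS. Differences between emf1-2 and clf28swn7 were called for NAC019 and SRS5. NAC019, a NAC factor of abscisic acid and jasmonate responses, had 55.7, 62.1 and 61.5 FPKM in emf1-2, 8.15, 8.08 and 8.12 in clf28swn7 and 1.63, 0.626 and 0.204 in ring1ab, against 0.369, 0.232 and 0.211 in WT. Its 3 clf28swn7 libraries agreed closely and lay far below the emf1-2 libraries, a difference of 2.74 ± 0.21 (SE, adjusted p = 1.5e-06). SRS5, of the SHI family of carpel and leaf regulators, was lower in emf1-2 than in clf28swn7 at a log2 difference of -1.02 ± 0.15 (SE, adjusted p = 1.4e-04). That difference was -0.92 without emf1-2 replicate 1, -0.95 without emf1-2 replicate 3, -0.99 without clf28swn7 replicate 3 and -0.96 after rescaling to TPM, each short of the threshold. PTL, which limits growth between sepals, averaged 16.5 FPKM in emf1-2, 8.14 in clf28swn7, 1.35 in ring1ab and 1.14 in WT. SPL4, a flowering regulator of the juvenile to adult transition, averaged 12.4 FPKM in emf1-2, 12.2 in clf28swn7, 1.96 in ring1ab and 3.03 in WT, and its ring1ab difference of -0.45 was among the lowest of the members. TCP1 was listed at 0 in all 3 ring1ab libraries and averaged 2.5 FPKM in emf1-2, 2.62 in clf28swn7, 0 in ring1ab and 0.0805 in WT. MYB37, a regulator of axillary meristems, averaged 25.9 FPKM in emf1-2, 26.9 in clf28swn7, 0.78 in ring1ab and 1.36 in WT. The homeodomain gene HB-7, induced by abscisic acid, averaged 149 FPKM in emf1-2, 89.2 in clf28swn7, 16.1 in ring1ab and 18.8 in WT.

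Genes of late seed maturation and water deficit were, of the 7 groups, the ones most often called between the severe mutants. Of 8 such members, 6 were lower in emf1-2 than in clf28swn7, 1 was higher and 1 was called in neither direction. Of all tested genes, 8.35% were lower and 5.54% higher. The count depends on which genes were put in the group. NAC019 and HB-7, also linked to abscisic acid, were placed with the transcription factors, and NAC019 was higher in emf1-2 at 2.74. The median of emf1-2 minus clf28swn7 was -2.06 in this group and 0.06 over all 200 members. Late embryogenesis abundant proteins and dehydrins protect drying cells, and many of their genes respond to abscisic acid. In the same libraries the seed storage markers were lower in emf1-2 than in clf28swn7, all 11 of 11 by the same call, and their part in this difference was not tested.

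GEA6, the late embryogenesis abundant protein EM6 (AT2G40170, chr2:16779552-16780368, minus strand), had 41.4, 27 and 13.3 FPKM in emf1-2, 425, 507 and 417 in clf28swn7 and 0.328, 0.457 and 0.32 in ring1ab, against 0.077, 0 and 0.0886 in WT. The clf28swn7 libraries lay above the emf1-2 libraries without overlap, a difference of -4.13 ± 0.29 (SE, adjusted p = 7.4e-07), and ring1ab stayed under 0.5 FPKM. AT1G47980, annotated as desiccation-like (chr1:17691811-17693887, minus strand), had 22.7, 27.1 and 29.997 FPKM in emf1-2, 127, 126 and 177 in clf28swn7 and 0, 0.243 and 0.273 in ring1ab, against 0 in all 3 WT libraries. It was lower in emf1-2 than in clf28swn7 at a log2 difference of -2.38 ± 0.15 (SE, adjusted p = 3.1e-07). The levels of both genes in ring1ab stood beside seed storage sums of 14785 to 25118 FPKM in those libraries.

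LTI30, a dehydrin, had 277, 286 and 232 FPKM in emf1-2, 701, 799 and 670.5 in clf28swn7 and 75.4, 46.1 and 51 in ring1ab, against 33.5, 46.2 and 44.5 in WT. LTI78, induced by cold and drought, had 146, 82.8 and 59.6 FPKM in emf1-2, 432, 520.2 and 449 in clf28swn7 and 25.1, 9.12 and 9.5 in ring1ab, against 12.3, 14.8 and 15.5 in WT. Both were already above 12 FPKM in WT and were lower in emf1-2 than in clf28swn7, at a log2 difference of -1.45 ± 0.18 (SE, adjusted p = 5.3e-05) for LTI30 and -2.36 ± 0.37 (SE, adjusted p = 2.5e-04) for LTI78. HAI3, a PP2C phosphatase of abscisic acid signalling, had 5.35, 3.03 and 1.62 FPKM in emf1-2, 13.9, 14.2 and 10.3 in clf28swn7 and 0.367, 0.554 and 0.60 in ring1ab, against 0, 0.308 and 0.0421 in WT, a difference of -1.75 ± 0.26 (SE, adjusted p = 1.8e-04). PYL11, an abscisic acid receptor, had 2.23, 2.76 and 1.87 FPKM in emf1-2, 14, 25 and 15.3 in clf28swn7 and 0.0851, 0.456 and 0.353 in ring1ab, against 0 in all 3 WT libraries, a difference of -2.50 ± 0.19 (SE, adjusted p = 1.3e-06). RD20, a caleosin of lipid droplets, went the other way, with 65, 72.5 and 81.8 FPKM in emf1-2, 20.4, 13 and 13.1 in clf28swn7 and 2.56, 3.95 and 1.39 in ring1ab, against 1.52, 2.66 and 2.17 in WT and a difference of 2.19 ± 0.25 (SE, adjusted p = 3.1e-05). RD22, another drought gene, averaged 593 FPKM in emf1-2, 368 in clf28swn7, 105 in ring1ab and 97 in WT.

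The core of the abscisic acid response element (ACGTG) occurred in the 250 bases before the start of 5 of these 8 genes, and in 31% of members and 24.1% of tested genes. Windows of 4 of the 5 are shown, the first 3 of which hold it within a G-box (CACGTG), where both strands match. They lie at chr2:16780369-16780618 for GEA6 (minus strand), chr1:17693888-17694137 for AT1G47980 (minus strand), chr2:14146556-14146805 for RD20 (minus strand) and chr2:12608425-12608674 for HAI3 (plus strand) of RefSeq TAIR10.1, with the core on either strand in capitals.
GEA6: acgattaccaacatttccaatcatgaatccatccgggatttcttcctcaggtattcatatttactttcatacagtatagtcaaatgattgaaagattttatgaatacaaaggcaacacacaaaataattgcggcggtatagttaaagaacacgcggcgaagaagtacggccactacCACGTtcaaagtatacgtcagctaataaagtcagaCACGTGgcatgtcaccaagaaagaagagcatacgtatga
AT1G47980: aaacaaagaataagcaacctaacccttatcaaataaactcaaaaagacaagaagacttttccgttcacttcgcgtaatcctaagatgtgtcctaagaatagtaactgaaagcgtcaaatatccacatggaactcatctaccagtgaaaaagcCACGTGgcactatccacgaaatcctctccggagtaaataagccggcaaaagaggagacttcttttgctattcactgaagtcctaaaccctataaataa
RD20: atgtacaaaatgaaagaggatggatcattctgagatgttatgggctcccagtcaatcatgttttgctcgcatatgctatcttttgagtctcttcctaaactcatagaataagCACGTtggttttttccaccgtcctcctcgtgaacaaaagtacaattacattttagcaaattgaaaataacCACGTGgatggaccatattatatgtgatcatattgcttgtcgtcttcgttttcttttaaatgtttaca
HAI3: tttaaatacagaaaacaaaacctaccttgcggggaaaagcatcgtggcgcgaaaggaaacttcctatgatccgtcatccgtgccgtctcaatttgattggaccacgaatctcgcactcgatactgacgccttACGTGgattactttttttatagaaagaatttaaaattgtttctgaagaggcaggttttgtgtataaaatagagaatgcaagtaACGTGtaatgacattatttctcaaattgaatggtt
The G-box was in 10.5% of members and 7.43% of tested genes. The element was present in RD20, higher in emf1-2, as well as in GEA6, AT1G47980 and HAI3, lower in emf1-2. The RY core (CATGCA) of seed promoters was in 11% of members, 8.03% of tested genes and 0 of these 8.

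Genes of the plant surface and of triterpene synthesis included 2 of the 5 largest positive differences, LUP2 and SQE6. Of 9 members in the group, 4 were higher in emf1-2 than in clf28swn7, 0 were lower and 5 were called in neither direction. Among all tested genes 5.54% were higher and 8.35% lower, and the group was formed after the values were seen. LUP2, a synthase that cyclizes oxidosqualene to triterpenes (AT1G78960, chr1:29696394-29701439, plus strand), had 199, 222 and 202 FPKM in emf1-2, 22.3, 26.9 and 26.8 in clf28swn7 and 4.46, 6.38 and 5.53 in ring1ab, against 4.37, 5.4 and 5.79 in WT. It was higher in emf1-2 than in clf28swn7 at a log2 difference of 2.99 ± 0.13 (SE, adjusted p = 2.1e-08), the largest positive difference of the members. The enzymes that make oxidosqualene are squalene epoxidases, and 3 adjacent genes annotated in or beside this family on chromosome 5, SQP1, AT5G24155 and SQE6, were members (chr5:8172300-8186704).

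SQP1 had 67.2, 99.5 and 86.6 FPKM in emf1-2, 42.3, 35.2 and 31.2 in clf28swn7 and 0.453, 1.63 and 0.673 in ring1ab, against 0.835, 0.886 and 0.866 in WT, a difference between emf1-2 and clf28swn7 of 1.19 ± 0.21 (SE, adjusted p = 5.6e-04). SQE6 had 343, 488 and 409 FPKM in emf1-2, 65.4, 47.2 and 61.4 in clf28swn7 and 18.2, 24 and 25.4 in ring1ab, against 15.5, 17.5 and 18.1 in WT, a difference of 2.81 ± 0.16 (SE, adjusted p = 2.0e-07). AT5G24155, between them, had 5.41, 7.77 and 9.47 FPKM in emf1-2, 13.3, 15 and 8.98 in clf28swn7 and 0.398, 2.15 and 1.57 in ring1ab, against 0.81, 0.906 and 1.15 in WT, a difference of -0.65 ± 0.29 (SE, adjusted p = 0.071). The flanking genes were higher in emf1-2, whereas the middle gene was not called. Reads shared between such neighbours were not resolved here.

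CER1, an enzyme of wax alkane synthesis, had 253, 232 and 188 FPKM in emf1-2, 107, 109 and 103 in clf28swn7 and 9.14, 11.2 and 15.7 in ring1ab, against 12, 14.6 and 14.8 in WT. It was higher in emf1-2 than in clf28swn7 at a log2 difference of 1.06 ± 0.17 (SE, adjusted p = 3.0e-04), and its ring1ab libraries overlapped with WT. Without emf1-2 replicate 1 the difference was 0.97, and with median-of-ratios scaling it was 0.92, short of the threshold. SHN1, an activator of wax and cutin genes, averaged 3.11 FPKM in emf1-2, 3.35 in clf28swn7, 0.261 in ring1ab and 0.0604 in WT. WSD1, a wax ester synthase, averaged 11.8 FPKM in emf1-2, 7.68 in clf28swn7, 0.111 in ring1ab and 0.0652 in WT, and KCS2, which elongates fatty acids, averaged 36.5 FPKM in emf1-2, 49.7 in clf28swn7, 9.68 in ring1ab and 10.8 in WT. LP1, a lipid transfer protein, had the highest level of any member in WT and in the severe mutants, with 3101, 3203 and 3878 FPKM in emf1-2, 1925, 2311 and 2212 in clf28swn7 and 582, 699 and 555 in ring1ab, against 449, 519 and 466 in WT.

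Defence and wounding genes made a group of 15, of which 5 were higher in emf1-2 than in clf28swn7, 2 were lower and 8 were called in neither direction. The shares of all tested genes were 5.54% higher and 8.35% lower, and this group too was formed after the values were seen. CYP71A12, an enzyme of camalexin and related indole synthesis, had 68.5, 55.9 and 107 FPKM in emf1-2, 32.1, 35.8 and 42.6 in clf28swn7 and 1.44, 1.87 and 1.21 in ring1ab, against 1.19, 1.08 and 1.15 in WT, a difference between emf1-2 and clf28swn7 of 1.00 ± 0.20 (SE, adjusted p = 0.0013). This lay at the threshold and fell short of it without emf1-2 replicate 3 (0.74), without clf28swn7 replicate 1 (0.91) or 2 (0.99) and with median-of-ratios scaling (0.87). Its neighbour CYP71A13, which acts in camalexin synthesis, had 7.82, 9.6 and 22.5 FPKM in emf1-2, 5.68, 10.2 and 14.9 in clf28swn7 and 0.125, 0.199 and 0.0616 in ring1ab, against 0.205, 1.38 and 0.194 in WT, a difference of 0.30 ± 0.40 (SE, adjusted p = 0.55). The replicates of CYP71A13 spread so widely in both severe mutants that they overlapped. These P450 genes are close in sequence, so their reads may be split between them.

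Of 20 tested genes annotated as berberine-bridge-enzyme-like, 4 were members. AT1G26410 and AT1G26420 are adjacent, and AT1G26380 and AT1G30700 lie on the same chromosome. AT1G26380 had 14.6, 14.6 and 22 FPKM in emf1-2, 6.6, 5.86 and 7.13 in clf28swn7 and 1.09, 0.414 and 0.204 in ring1ab, against 0.192, 0.314 and 0.271 in WT and was higher in emf1-2 than in clf28swn7 at a log2 difference of 1.24 ± 0.20 (SE, adjusted p = 3.0e-04). AT1G30700 averaged 62.8 FPKM in emf1-2, 80.3 in clf28swn7, 10.1 in ring1ab and 11.2 in WT, with a difference of -0.34 ± 0.16 (SE, adjusted p = 0.094). The other 2 were called in neither direction, so 1 of the 4 passed the threshold.

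VSP2, a vegetative storage protein induced by jasmonate, had 140.05, 183 and 112 FPKM in emf1-2, 55.3, 51.8 and 44.2 in clf28swn7 and 6.02, 6.9 and 8.17 in ring1ab, against 4.95, 6.0 and 8.49 in WT. It was higher in emf1-2 than in clf28swn7 at a log2 difference of 1.49 ± 0.20 (SE, adjusted p = 9.5e-05), as was JRG21, a jasmonate-regulated oxygenase, at a log2 difference of 1.22 ± 0.32 (SE, adjusted p = 0.0069). For JRG21 the difference was 0.94 without emf1-2 replicate 2, and with a pseudocount of 0.1 it was 1.31 with an adjusted p of 0.15 in limma. CORI3, a cystine lyase induced by coronatine and jasmonate, was lower in emf1-2 than in clf28swn7 at a log2 difference of -1.38 ± 0.16 (SE, adjusted p = 3.4e-05). WAK1, a wall-associated kinase, was higher at a log2 difference of 1.41 ± 0.22 (SE, adjusted p = 3.0e-04). ChiC, a chitinase, had 118, 183 and 190.4 FPKM in emf1-2, 422, 423 and 549.8 in clf28swn7 and 15.8, 28 and 17.6 in ring1ab, against 14.6, 16.1 and 14.6 in WT and was lower in emf1-2 at a log2 difference of -1.52 ± 0.22 (SE, adjusted p = 1.6e-04). The basic chitinase HCHIB averaged 323 FPKM in emf1-2, 381 in clf28swn7, 80.7 in ring1ab and 84.9 in WT. PGIP1, an inhibitor of fungal polygalacturonases, averaged 500.2 FPKM in emf1-2, 505 in clf28swn7, 109.6 in ring1ab and 121 in WT, and LOX1, a lipoxygenase, averaged 314 FPKM in emf1-2, 189 in clf28swn7, 24.3 in ring1ab and 27.2 in WT.

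Conjugating and antioxidant enzymes made a group of 13 members, of which 0 were higher in emf1-2 than in clf28swn7, 1 was lower and 12 were called in neither direction. Among all tested genes 5.54% were higher and 8.35% lower, so a count of 1 in 13 is close to the background. Of 131 tested UDP-glycosyltransferases 6 were members, and of 41 tested glutathione S-transferases 4 were. GSTU12 and GSTU11, which are adjacent, averaged 8.5 FPKM in emf1-2, 12.5 in clf28swn7, 0.297 in ring1ab and 0.131 in WT for GSTU12 and 9.07 FPKM in emf1-2, 11.7 in clf28swn7, 0.651 in ring1ab and 0.216 in WT for GSTU11. GSTF12, which carries anthocyanins to the vacuole, had 0.731, 2.64 and 6.94 FPKM in emf1-2, 7.62, 8.02 and 6.81 in clf28swn7 and 0.0682, 0.0897 and 0 in ring1ab, against 0 in all 3 WT libraries. DFR, an enzyme of anthocyanin synthesis, had 0.801, 2.51 and 9.95 FPKM in emf1-2, 4.26, 5.52 and 4.93 in clf28swn7 and 0.195, 0.171 and 0.0386 in ring1ab, against 0.0387, 0.127 and 0.0994 in WT. Among the emf1-2 libraries, both genes were lowest in replicate 1 and highest in replicate 3. The difference of emf1-2 minus clf28swn7 was -1.20 ± 0.39 (SE, adjusted p = 0.022) for GSTF12 and -0.52 ± 0.47 (SE, adjusted p = 0.36) for DFR. Without emf1-2 replicate 1 that of GSTF12 was -0.66, short of the threshold.

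UGT87A2, a glycosyltransferase linked to flowering time, averaged 208 FPKM in emf1-2, 119 in clf28swn7, 23.5 in ring1ab and 20.4 in WT. UGT74E2, which conjugates the auxin indole-3-butyric acid, averaged 58.4 FPKM in emf1-2, 46.7 in clf28swn7, 5.61 in ring1ab and 4.7 in WT. The superoxide dismutases CSD1 and CSD2 averaged 186 FPKM in emf1-2, 182 in clf28swn7, 50.2 in ring1ab and 38.5 in WT for CSD1 and 95.9 FPKM in emf1-2, 98 in clf28swn7, 30.05 in ring1ab and 24 in WT for CSD2. DHAR1, which regenerates ascorbate, averaged 711 FPKM in emf1-2, 1229 in clf28swn7, 201 in ring1ab and 198 in WT. The dismutases lay within 0.1 of each other between emf1-2 and clf28swn7 on the log2 scale, at 0.01 ± 0.14 for CSD1 and -0.05 ± 0.16 for CSD2 (SE).

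Genes of DNA replication and chromosome structure made up a group of 8 members. None of them was called between emf1-2 and clf28swn7, with differences between -0.12 and 0.34. With 5.54% of tested genes higher and 8.35% lower, 0 of 8 is also close to the background. In ring1ab all 8 lay above WT, between 0.28 and 0.48, with a median of 0.41 against 0.19 over all 200 members, so they sat near the limit that chose them. MCM4, a subunit of the replicative helicase, had 26.5, 24.1 and 22.5 FPKM in emf1-2, 21.1, 21.5 and 20.1 in clf28swn7 and 7.34, 8.68 and 7.96 in ring1ab, against 5.02, 5.97 and 6.42 in WT. ETG1, a replisome factor, had 21.7, 21.2 and 18.1 FPKM in emf1-2, 20.4, 19.4 and 20.4 in clf28swn7 and 7.14, 7.62 and 6.37 in ring1ab, against 4.74, 6.04 and 4.33 in WT. The condensin subunits SMC2 and ATSMC2 averaged 16.6 FPKM in emf1-2, 16.5 in clf28swn7, 6.28 in ring1ab and 4.22 in WT for SMC2 and 9.48 FPKM in emf1-2, 9.14 in clf28swn7, 3.12 in ring1ab and 1.96 in WT for ATSMC2. All ring1ab libraries of MCM4 and ETG1 lay above the WT libraries and below those of the severe mutants, the latter largely through the choice of members. Every ring1ab library lay above every WT library in 65 members (32.5%) and in 29.4% of tested genes. Every one lay below in 9 members and in 21.5% of tested genes.

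The most abundant members in WT were LP1, AT2G25450, DHAR1, ADC2 and PGIP1. In the severe mutants LP1, AT2G25450, DHAR1, AT4G01610 and ADC2 reached the highest means. AT2G25450, a 2-oxoglutarate-dependent oxygenase, had 2212, 2347 and 2049 FPKM in emf1-2, 896, 834 and 828 in clf28swn7 and 217, 230.5 and 227 in ring1ab, against 189.9, 232 and 227 in WT and was higher in emf1-2 than in clf28swn7 at a log2 difference of 1.37 ± 0.09 (SE, adjusted p = 4.3e-07). ADC2, arginine decarboxylase of polyamine synthesis, averaged 629 FPKM in emf1-2, 737 in clf28swn7, 174 in ring1ab and 182 in WT. AT4G01610, a cysteine protease, averaged 441 FPKM in emf1-2, 751 in clf28swn7, 113 in ring1ab and 112 in WT. In ring1ab these abundant genes lay close to WT, with AT2G25450 at 217 to 230.5 FPKM in ring1ab and 190 to 232 FPKM in WT.

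Of the 200 members, 197 were annotated as protein coding, 1 as a pseudogene, 1 as a small nucleolar RNA and 1 as a non-coding RNA, TAS3b, a precursor of trans-acting small RNAs. TAS3b had 2.35, 2.86 and 1.56 FPKM in emf1-2, 2.58, 2.77 and 1.85 in clf28swn7 and 0.11, 0 and 0 in ring1ab, against 0 in all 3 WT libraries. Chromosome 1 carried 32.5% of members and 26.1% of tested genes, and chromosome 3 carried 14% of members and 19.6% of tested genes. By RefSeq coordinates 12 members stood in 5 runs with no other tested gene between them, and 24 had another member within 20 kb. The corresponding shares over all tested genes were not computed, so these counts show no clustering. The 3 RNI-like genes AT4G05470, AT4G05475 and AT4G05490 formed such a run and were all lower in emf1-2 than in clf28swn7, at a log2 difference of -2.31 ± 0.11 (SE, adjusted p = 4.8e-08) for AT4G05470, -1.92 ± 0.08 (SE, adjusted p = 2.6e-08) for AT4G05475 and -1.69 ± 0.14 (SE, adjusted p = 2.3e-06) for AT4G05490. The emf1-2 level of AT3G30833 rested mostly on a single library: it had 0.577, 65.5 and 4.86 FPKM in emf1-2, 13.9, 16.2 and 15.4 in clf28swn7 and 0.0118, 0 and 0 in ring1ab, against 0 in all 3 WT libraries. Membership of other genes also depended on single libraries, as 174 to 196 members were kept with 1 library left out.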

How the data were processed

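RNA-seq of 3 libraries each of emf1-2, clf28swn7, ring1ab and WT seedlings was analysed. HISAT2 was the aligner and TAIR10 the genome of the authors, who deposited FPKM values made per gene by StringTie and ballgown. Versions and strand settings are not given in the sources used here. The methods name a total RNA kit, whereas the labels give polyadenylated RNA. Gene names, coordinates and windows came from RefSeq TAIR10.1, in which 32835 of 33602 genes and all 200 members were found. Genes with at least 1 FPKM in 3 libraries were tested as log2(FPKM + 1), a scale that understates changes of low genes, with limma 3.58.1 in R 4.3.3, all 12 libraries in 1 fit without a block, two-sided. Calls needed a log2 fold change of 1 and an unadjusted p under 0.05, and Benjamini-Hochberg values cover all 21227 genes. The study describes the 3 replicates as biological and independent. The sources used here do not say whether they came from separate sowings, so p-values measure the spread between these samples.

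The members and gene lists were chosen with earlier results of these data known. Genes were named as the first 10 members, 3 on each side of the rank limit, members on a list, the 5 largest differences each way between emf1-2 and clf28swn7, the 5 most abundant members in WT and in the severe mutants, and the first 5 genes that failed the ring1ab limit; all others were named after their values were seen. Alternatives were a pseudocount of 0.1, no filter, emf1-2 and clf28swn7 alone, eBayes with trend and robust settings, a replicate block, median-of-ratios and TPM scaling, other ring1ab limits, and each library left out. The test was checked on simulated data. Python 3.11.15, pandas 2.3.3, numpy 2.4.6 and matplotlib 3.10.9 were used. Depth was estimated, not given, so no counting intervals were computed.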

Additional observations from a re-analysis of the deposited data

Results flagged for a closer look

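The severe mutants differed from each other in 32 members higher and 28 lower in emf1-2 than in clf28swn7, in the direct contrast of limma. These results are listed because 2 mutants set against the same WT libraries differed in a test of the difference itself.

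Of the members higher in emf1-2, the largest differences of emf1-2 minus clf28swn7 were 2.99 for LUP2, 2.96 for AT3G27025, 2.93 for TT16, 2.81 for SQE6 and 2.74 for NAC019. Each had 3 emf1-2 libraries above all 3 clf28swn7 libraries, as had 40.3% of all tested genes.

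Of the members lower in emf1-2, the largest differences were -4.13 for GEA6, -3.40 for AT3G21380, -2.70 for AT5G05220, -2.69 for AT1G14950 and -2.503 for PYL11. Each had 3 emf1-2 libraries below all 3 clf28swn7 libraries, as had 24.8% of all tested genes. Genes picked for the largest differences tend to separate in this way, so the separation adds no support.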

How the results depend on the processing

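The 32 members higher and 28 lower in emf1-2 than in clf28swn7 stayed within 1.5 times under every alternative run. With median-of-ratios scaling they were 28 and 32, after rescaling to TPM 35 and 27, and with 1 library left out 30 to 35 and 24 to 30. Median-of-ratios scaling moved the median of all genes in emf1-2 against WT to 0.02, against 0.19 for the deposited values. Applying the membership rule again kept 106 members with a pseudocount of 0.1, 99 with a ring1ab limit of 0.25, 112 with a limit of 1, and 174 to 196 with 1 library left out. The members' median difference from WT was 3.28 in emf1-2, 3.04 in clf28swn7 and 0.33 in ring1ab with a pseudocount of 0.1. It was 2.34 in emf1-2 and 2.38 in clf28swn7 with median-of-ratios scaling, and 2.72 and 2.504 after rescaling to TPM. With 1 library left out it was 2.43 to 2.60 in emf1-2, 2.38 to 2.46 in clf28swn7 and 0.16 to 0.24 in ring1ab. A smaller pseudocount stretches low values by its construction. The cause of the other shifts was not tested. Of 722 repeats of differences for named genes, 707 kept their direction and side of the threshold, 15 fell short of it and 0 reversed. The 15 belong to AGL6, SRS5, CER1, CYP71A12, JRG21 and GSTF12, whose values stand in the report.

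With the replicate number as a block, the counts were 32 and 28 again. Deviations of libraries with the same number correlated between -0.14 and 0.08, 0 of 18 pairs over 0.1, and 6 of 36 best matches had the same number, so the numbers do not pair the libraries. Depth limits low genes: 1 fragment is worth more FPKM in the shallower clf28swn7 libraries.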
